A study of Mus musculus with 32 samples.

Results

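The regulators of G protein signalling described here are 6 genes, Rgs2, Rgs4, Rgs5, Rgs7, Rgs10 and Rgs16, of 8251 genes that the array names through a probe set with a single gene symbol. They were chosen by name, and every probe set whose only symbol in the platform annotation is one of the 6 was taken, which gave 10 probe sets of 10833. RNA was measured in the hippocampus of untreated mice of 8 inbred strains on 32 Affymetrix U74Av2 arrays, 4 to a strain. The strains were DBA/2J, BALB/cByJ, C57BL/6J, C3H/HeJ, SJL/J, A/J, FVB/NJ and the one that the sample titles write as hippocampus_129S1SvImJ, the name kept for it here. No transgene, mutation or drug separates the groups, the labels give no age or sex, and the strains differ in their whole inbred genome. Each strain is a single pool of RNA from 6 mice made into 1 cDNA, from which cRNA was prepared 2 times, with 2 arrays for each preparation (arrays 1 and 2 hold the first, arrays 3 and 4 the second), so every p-value below measures the spread of preparations and hybridisations and none measures the spread between mice.

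Receptors coupled to heterotrimeric G proteins signal while the alpha subunit holds GTP, and RGS proteins shorten that signal by speeding up the hydrolysis of GTP on the alpha subunit. Rgs2, Rgs4, Rgs5 and Rgs16 encode small proteins made of little more than the RGS domain; Rgs2 acts mainly on alpha subunits of the Gq class, and the others on those of both the Gi and Gq classes. Rgs7 is a larger neuronal protein that needs the beta subunit Gnb5 for its stability and acts on Gi and Go, and Rgs10 is a small protein known from neurons and microglia that acts on Gi. In brain, Rgs5 is best known as a transcript of pericytes, the contractile cells on capillaries.

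A value below is a deposited signal, which is linear, or its log2, and a mean ± SD is over the 2 preparations of a strain on the log2 scale (n = 2). Of the 10 probe sets, 8 were among the 7453 tested, the 60% of non-control probe sets with the highest mean, and these 8 covered all 6 genes. The 2 that fell below the limit were 1 of 3 for Rgs10 and 1 of 2 for Rgs16. Signals of different probe sets are not on a common scale, so no gene's level is set against another's. A summed signal of a marker list weighs its brightest probe sets most. The table held no detection calls. A probe set was called when limma's adjusted p, corrected over all tested probe sets, was under 0.05. In bulk tissue, fewer cells of a type and less RNA per cell cannot be told apart. Sequence variants of the strains under the probes were not looked up, and their part in the signals was not tested.

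Arrays had median signals of 29.4 to 43.7. Of the hippocampal neuron markers 8 of 9 on the array were tested, with log2 means from 5.27 for Prox1 to 10.01 for neurogranin (Nrgn). Being tested shows only a mean signal above the limit, not that a marker was detected. Of 7 thalamus and striatum markers on the array 5 were also tested, with log2 means from 4.81 for Drd2 to 7.73 for Penk. Rgs9, an RGS gene of the striatum on the same list, was below the limit for testing. The sense-strand controls for Gapdh and actin split the arrays, with log2 values of 6.95 to 7.84 on 11 arrays and of 4.91 to 5.64 on the remaining 21. Every array of BALB/cByJ was among the 11, as were the first-preparation arrays of SJL/J, C3H/HeJ and A/J and the first array of FVB/NJ.

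Rgs5 and Rgs4 are shown first as sequence because they are direct neighbours on chromosome 1, with 0 annotated genes between them in the RefSeq table, and yet only Rgs5 passed the test across strains. The lines give the 250 bases before each RefSeq transcript start, on the gene's own strand, in the mouse build GRCm38.p6, which is the C57BL/6J genome. The window of Rgs5 is chr1:169655251-169655500 on the plus strand and that of Rgs4 is chr1:169747643-169747892 on the minus strand. Capitals mark the letters CCAAT or their reverse complement ATTGG, and TATAAA (reverse complement TTTATA) or TATATA.
Rgs5: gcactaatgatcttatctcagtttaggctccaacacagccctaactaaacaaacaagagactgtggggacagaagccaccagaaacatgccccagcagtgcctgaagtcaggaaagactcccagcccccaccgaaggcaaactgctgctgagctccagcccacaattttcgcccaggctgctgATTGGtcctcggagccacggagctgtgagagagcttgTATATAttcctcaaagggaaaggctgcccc
Rgs4: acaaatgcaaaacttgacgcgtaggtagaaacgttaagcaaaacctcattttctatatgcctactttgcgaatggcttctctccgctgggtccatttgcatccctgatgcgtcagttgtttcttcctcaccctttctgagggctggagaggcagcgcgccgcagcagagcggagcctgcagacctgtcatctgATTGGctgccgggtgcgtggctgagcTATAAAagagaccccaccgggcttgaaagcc
Both windows held ATTGG, 62 bases before the start in Rgs5 and 52 bases before it in Rgs4, and each held a different AT-rich run close to the start, TATATA at 24 bases in Rgs5 and TATAAA at 25 bases in Rgs4. Among 32851 RefSeq windows of the same length, 33.8% held CCAAT or ATTGG, 12.4% TATAAA or TTTATA and 5.25% TATATA, counted on both strands. The windows of Rgs2 and Rgs16 also held the first of these, and those of Rgs7 and Rgs10 held none of the 3. The motifs were chosen after the sequences had been seen, the matches are descriptions of letters, and the genomes of the other 7 strains were not used here.

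Without a block in the model, Rgs5 was the only gene of the 6 whose signal differed between strains in the F-test, and both of its probe sets passed. It read high in DBA/2J, BALB/cByJ and C57BL/6J and low in the other strains. With probe set 103294_at, DBA/2J had signals of 88.5, 92.4, 94.4 and 127.0 on arrays 1 to 4. BALB/cByJ had 87.3, 93.3, 60.7 and 84.9, and C57BL/6J had 57.2, 63.7, 82.6 and 87.4. The arrays of these 3 strains overlap one another. In hippocampus_129S1SvImJ the signals were 28.7, 17.6, 24.2 and 24.2, and in C3H/HeJ 22.9, 23.1, 21.2 and 25.1. SJL/J had 9.0, 21.3, 30.7 and 29.1, A/J had 13.3, 17.3, 21.0 and 23.2, and FVB/NJ had 20.9, 14.0, 22.9 and 15.6. The lowest C57BL/6J array, 57.2, therefore stood above the highest array of any of the 5 low strains, 30.7 in SJL/J. Those low signals lie close to the limit for testing, a mean of 21.3.

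On the log2 scale the strain means of probe set 103294_at were 6.64 ± 0.20 in DBA/2J, 6.33 ± 0.23 in BALB/cByJ, 6.16 ± 0.35 in C57BL/6J, 4.54 ± 0.08 in hippocampus_129S1SvImJ, 4.53 ± 0.00 in C3H/HeJ, 4.35 ± 0.79 in SJL/J, 4.19 ± 0.38 in A/J and 4.17 ± 0.10 in FVB/NJ. The range of 2.47 is 5.53-fold and lies at the 99.4th percentile of the ranges of all tested probe sets, whose median was 0.68. With 16 or 64 added to every signal before log2 the range was 1.76 or 0.99, so its size depends on how signals near the limit for testing are treated. Limma's F-test across the 8 strains gave an adjusted p of 0.00086. Strain held 85.8% of the variance over the 32 arrays, preparation 5.74% and array 8.48%, against medians of 6.73%, 20.9% and 58.3% over all tested probe sets.

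**Figure D1:**
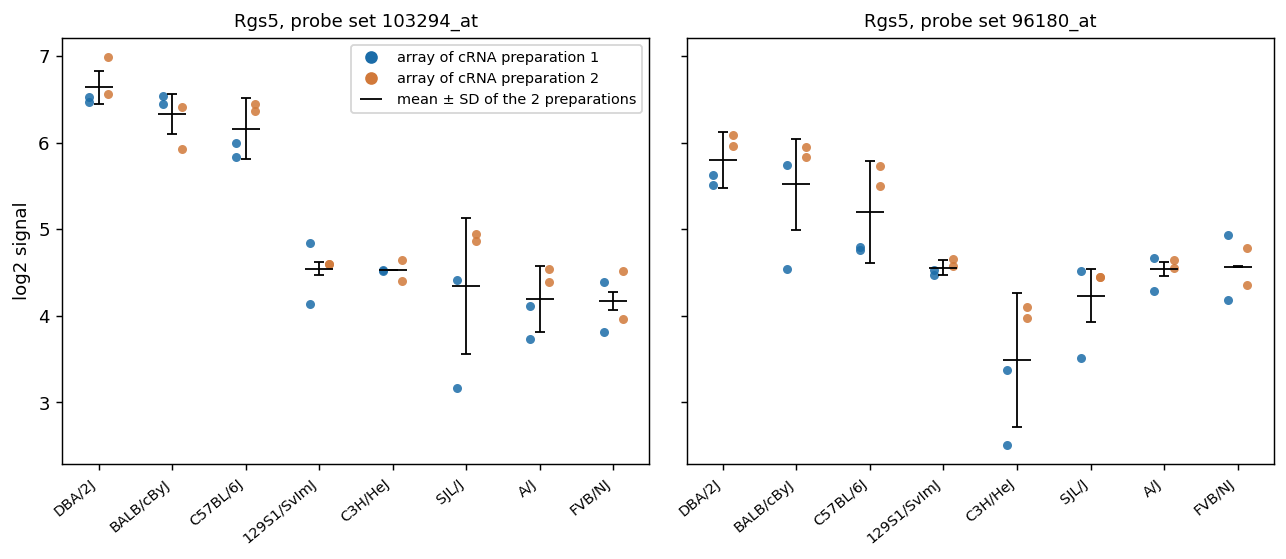
Log2 signal of the 2 Rgs5 probe sets on each of the 32 arrays, by strain; points are arrays, coloured by cRNA preparation, and bars are the mean ± SD of the 2 preparations. In the left panel the arrays of DBA/2J, BALB/cByJ and C57BL/6J stand apart from all others, and in the right panel the same 3 strains have the highest means while C3H/HeJ has the lowest, 3.49.

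The order of strains for this probe set has 1 step that passed the test. Of the 28 pairs of strains, 15 were called, namely each of DBA/2J, BALB/cByJ and C57BL/6J over each of the other 5, by 3.07-fold to 5.53-fold (limma's adjusted p from 0.0026 to 0.0391). The smallest of these was between neighbours in the order, C57BL/6J over hippocampus_129S1SvImJ, by 1.62 ± 0.37 (log2 difference ± SE, adjusted p = 0.0391). DBA/2J exceeded BALB/cByJ by 0.31 ± 0.37 and C57BL/6J by 0.47 ± 0.37, and BALB/cByJ exceeded C57BL/6J by 0.17 ± 0.37, none of which passed (limma's adjusted p from 0.622 to 0.997). Among the 5 low strains the differences between means were at most 0.38, with the same SE, and none passed. Over all 8 member probe sets 17 of 224 pair contrasts were called, with 34 when the preparation number was a block in the model. The shares over all tested probe sets were 1.58% and 6.14%.

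Each strain was next compared with the average of the remaining 7. Rgs5 by probe set 103294_at was higher in DBA/2J by 1.74 ± 0.28 (log2 difference ± SE), which is 3.34-fold, with limma's adjusted p = 0.0036. It was higher in BALB/cByJ by 1.39 ± 0.28 (2.62-fold, limma's adjusted p = 0.0105) and in C57BL/6J by 1.20 ± 0.28 (2.30-fold, limma's adjusted p = 0.0362). Calls in these directions were made for 0.483%, 3.11% and 0.912% of all tested probe sets. These were the only 3 of the 64 contrasts of a strain with the rest that were called for the 8 member probe sets, and over all tested probe sets 1.93% of such contrasts were. With the preparation block 11 of 64 were called, against 6.13% over all, and the additions for this probe set were A/J, at -1.05 (limma's adjusted p = 0.0393), and FVB/NJ, at -1.08 (limma's adjusted p = 0.0303), where 0.725% of all tested probe sets were lower in A/J and 0.792% in FVB/NJ.

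The call for C57BL/6J was the least stable of the 3. Counting array 2 of FVB/NJ with the second preparation, an alternative chosen after seeing the data, ended this call. It was lost without array 1 of BALB/cByJ (limma's adjusted p = 0.0505), array 2 of FVB/NJ (0.0557) or array 2 of SJL/J (0.0878). It was also lost without each of 9 of the 16 preparations, both of C57BL/6J, DBA/2J and FVB/NJ, the first of hippocampus_129S1SvImJ and A/J and the second of BALB/cByJ (limma's adjusted p from 0.0534 to 0.344), and when all probe sets were tested (0.0551). The calls for DBA/2J were lost without either of its own preparations (limma's adjusted p = 0.0864 without the first and 0.134 without the second), and that for BALB/cByJ without its first (limma's adjusted p = 0.157), though no difference changed sign. BALB/cByJ had the sense-strand controls high on all arrays (7.60 to 7.84), whereas DBA/2J (5.28 to 5.64) and C57BL/6J (5.11 to 5.64) had them low. With that control level as a covariate the strain F-test of this probe set gave an adjusted p of 0.00041, DBA/2J stayed called, and BALB/cByJ (1.88, limma's adjusted p = 0.0513) and C57BL/6J (0.99, limma's adjusted p = 0.115) did not. Without BALB/cByJ the F-test gave an adjusted p of 0.0043. Over the alternatives that tested this probe set and left out no single array or preparation it lay between 3.8e-09 and 0.0043. The smallest came from single arrays with the title day as a block, a fit that takes the 2 arrays of a preparation as separate replicates.

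The sample titles carry a day, 6 in all, and this Rgs5 probe set was compared within each. On each of the 4 days with a DBA/2J array, that array read 1.57 to 2.05 above the mean of the other strains' arrays of the day (log2). C57BL/6J read 0.95 to 1.58 above on its 4 days, and BALB/cByJ 1.59 to 1.96 above on the 3 days that it shares with other strains, of which 1 day holds a single other array. By the second probe set, 96180_at, DBA/2J read 1.13 to 1.49 above, and BALB/cByJ 0.05 above on the first day and 1.40 and 1.05 above on the other two.

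The second Rgs5 probe set, 96180_at, gave DBA/2J 49.2, 45.7, 67.8 and 62.5. BALB/cByJ had 23.3, 53.5, 57 and 61.8, and C57BL/6J had 27.8, 27.1, 53.1 and 45.1. These are again the 3 strains with the highest means, 5.80 ± 0.32, 5.52 ± 0.53 and 5.20 ± 0.59. However, array 1 of BALB/cByJ and both first-preparation arrays of C57BL/6J now lie within the other strains. C3H/HeJ was lowest, with 10.4, 5.7, 17.2 and 15.7 and a mean of 3.49 ± 0.77. The remaining strains had means of 4.57 ± 0.01 in FVB/NJ, 4.56 ± 0.09 in hippocampus_129S1SvImJ, 4.54 ± 0.08 in A/J and 4.23 ± 0.31 in SJL/J, with signals from 11.4 to 30.6.

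The range of 96180_at was 2.30, or 4.94-fold, and limma's F-test gave an adjusted p of 0.0458, close to the threshold. The call was lost without each of 16 of the 32 arrays, at least 1 in every strain, with limma's adjusted p up to 0.144 without array 2 of BALB/cByJ. It held without the first preparation of C57BL/6J or the second of C3H/HeJ and was lost without any of the other 14 preparations, with limma's adjusted p up to 0.154 without the second of DBA/2J. Without all of BALB/cByJ it was 0.0898 and with all probe sets tested 0.0707. Over the alternatives that left out no single array or preparation the adjusted p lay between 6.7e-05 and 0.0898. The smallest was again that of single arrays with the title day as a block. Of its 28 pairs of strains 2 were called, DBA/2J over C3H/HeJ by 2.30 ± 0.42 (limma's adjusted p = 0.0112) and BALB/cByJ over C3H/HeJ by 2.02 ± 0.42 (limma's adjusted p = 0.0301), and 8 with the preparation block. Over all tested probe sets 1.58% of pair contrasts were called, and 6.14% with the block. No strain was called against the other 7. With the preparation block DBA/2J (higher by 1.21, limma's adjusted p = 0.0094), BALB/cByJ (higher by 0.89, limma's adjusted p = 0.0144) and C3H/HeJ (-1.42, limma's adjusted p = 0.0049) were, in directions called for 1.78%, 13.8% and 0.832% of all tested probe sets.

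The strain means of the 2 Rgs5 probe sets correlated with r = 0.836 over 8 strains, a value that 8.25% of 1248 pairs of probe sets of 1 gene reached in these libraries, where the median r was 0.272. Both probe sets read the same arrays, so they share preparation and hybridisation. A test of whether their difference in log2 signal varies between strains gave an adjusted p of 0.195 with limma's F-test, with a range of that difference of 1.43. C3H/HeJ, with a mean of 4.53 by 103294_at, close to that of the other low strains, was the lowest strain by 96180_at, at 3.49. In the fits of single arrays the difference passed, with limma's adjusted p = 0.0166 with preparation as a random block and 0.0028 with the title day as a block. The second of these fits has no term for preparation, so it takes the 2 arrays of a preparation as separate replicates. Of the 2 pairs of member probe sets 0 were called, and 1.36% of all pairs were.

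**Figure D2:**
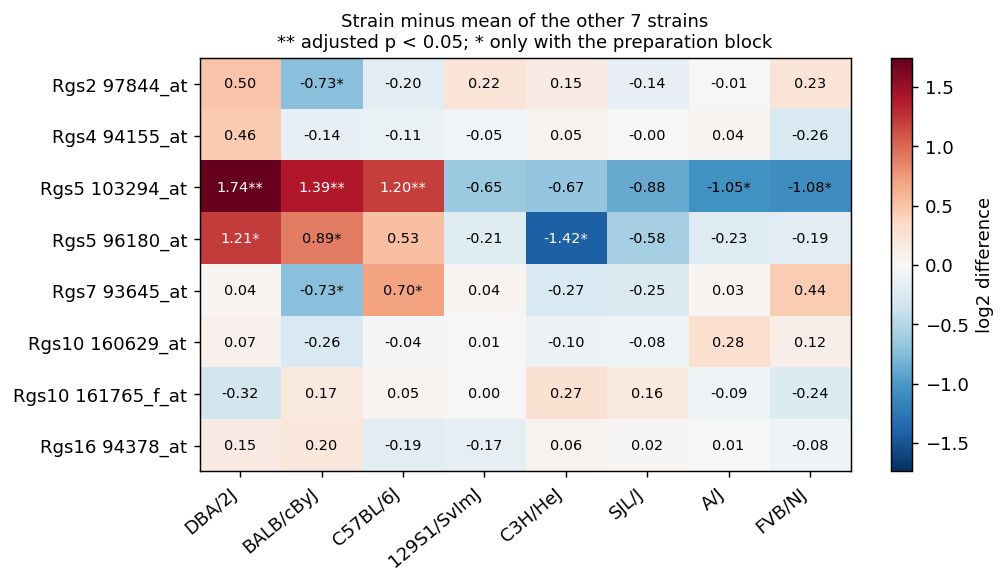
Log2 difference of each strain from the mean of the other 7 for the 8 tested member probe sets, with strains in the order of Rgs5 probe set 103294_at; red is higher and blue lower. The 3 differences marked with 2 asterisks, all in Rgs5 103294_at (1.74, 1.39 and 1.20), passed limma's test without a block, and the 8 marked with 1 asterisk passed only with the preparation number as a block.

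Because Rgs5 is a known pericyte transcript, the levels of vascular markers are given beside it. Of 11 pericyte and smooth muscle markers on the array 5 were tested, Pdgfrb, Notch3, Tagln, Mcam and Vtn, and 0 of the 5 were called with or without the preparation block. Their summed signal was 225.7 in DBA/2J, 235.2 in BALB/cByJ and 242.3 in C57BL/6J, and 220.4 in hippocampus_129S1SvImJ, 231.2 in C3H/HeJ, 241.2 in SJL/J, 221.7 in A/J and 210.3 in FVB/NJ. The range of Pdgfrb, the receptor that defines pericytes, was 0.41, with its highest mean, 4.63, in FVB/NJ and its lowest, 4.22, in DBA/2J. The other 4 had their highest means in strains with high Rgs5. Tagln, an actin-binding protein of smooth muscle, spanned 5.49 in BALB/cByJ to 4.52 in FVB/NJ, and Notch3, a receptor of mural cells, 5.99 to 5.26 in the same strains. Mcam was highest in C57BL/6J (5.81) and lowest in hippocampus_129S1SvImJ (5.24). Vtn was highest in DBA/2J (6.53) and lowest in BALB/cByJ (5.79), so both of its extremes were strains with high Rgs5. Over 8 strains, r with Rgs5 103294_at was -0.90 for Pdgfrb and 0.05 to 0.41 for the other 4. The mean log2 of Pdgfrb, 4.52, lies close to the limit for testing, and its strain differences did not pass (limma's F-test, adjusted p = 0.966). Endothelial markers, 4 tested of 9, were not called either, and their summed signal was highest in DBA/2J, at 294.7, and lowest in A/J, at 230.2. It was 292 in hippocampus_129S1SvImJ, 277.5 in C57BL/6J, 274.2 in FVB/NJ, 266.2 in BALB/cByJ, 250.6 in SJL/J and 237 in C3H/HeJ. The other 6 pericyte markers on the array lay below the limit for testing. The part of these cells in the Rgs5 result was not tested.

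Other markers did move with strain. Of the 8 hippocampal neuron markers 3 were called without the block, Camk2a, Neurod1 and Nrgn, and 7 with it. Over all 5660 tested genes 232 were called without the block and 1068 with it. Over 8 strains of the same arrays, r with Rgs5 103294_at was -0.905 for Neurod1, a transcription factor of granule cells, -0.881 for Prox1 and -0.675 for Camk2a, a kinase of excitatory neurons, and from -0.481 to 0.427 for the other 5. The summed signal of the 8, in which Nrgn and Camk2a were the brightest, was lowest in DBA/2J, at 2011, and highest in A/J, at 3465. C57BL/6J summed to 2295 and BALB/cByJ to 3052. The part of these markers in the Rgs5 result was not tested.

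Rgs2, which acts on Gq, was highest in DBA/2J, where it had signals of 48.1, 54.3, 86.3 and 88.5 and a mean of 6.06 ± 0.55. BALB/cByJ was lowest, with 38.7, 19.2, 24.4 and 55.6 and a mean of 4.99 ± 0.31. The arrays of these 2 strains overlap. Means of the other 6 strains ran from 5.83 in FVB/NJ to 5.45 in C57BL/6J. Limma's F-test gave an adjusted p of 0.687, and 0.0493 with the preparation block. In all 8 strains the second preparation read higher than the first, by 0.60 on average on the log2 scale, where the median over all tested probe sets was 0.08. BALB/cByJ differed from the other 7 by -0.73 ± 0.31, which did not pass without the block (limma's adjusted p = 0.131) and passed with it (limma's adjusted p = 0.0058), as did 16.6% of all tested probe sets in that direction. With the sense-strand control level, high on every BALB/cByJ array, as a covariate the difference was -0.39 (limma's adjusted p = 0.762). Of the 28 pairs of strains 0 were called for Rgs2 without the block and 4 with it, DBA/2J over BALB/cByJ among them (1.08 ± 0.41, limma's adjusted p = 0.132, and 0.0041 with the block). The share of pair contrasts called with the block over all tested probe sets was 6.14%. By title day BALB/cByJ differed from the mean of the other strains' arrays by 0.00 on the first day, -1.21 on the second and -1.77 on the fifth. The fifth day held 1 other array.

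Rgs7, the neuronal partner of Gnb5, was highest in C57BL/6J, with signals of 311.8, 100.6, 249.5 and 238.6 and a mean of 7.70 ± 0.33. It was lowest in BALB/cByJ, with 94.8, 48.8, 82.5 and 151.8 and a mean of 6.45 ± 0.51. Between them came FVB/NJ at 7.48 ± 0.55, hippocampus_129S1SvImJ at 7.12 ± 0.65, DBA/2J at 7.12 ± 0.27, A/J at 7.11 ± 0.07, SJL/J at 6.87 ± 0.58 and C3H/HeJ at 6.85 ± 0.59. The spread between arrays of 1 preparation was large, and array held 86.9% of the variance, against 6.94% for strain. Limma's F-test gave an adjusted p of 0.501, and 0.0058 with the preparation block; as for Rgs2, the second preparation read higher in 8 of 8 strains, by 0.63 on average. C57BL/6J was higher than the other 7 by 0.70 ± 0.30 (limma's adjusted p = 0.336, and 0.0082 with the block), and BALB/cByJ differed from the other 7 by -0.73 ± 0.30 (limma's adjusted p = 0.123, and 0.0023 with the block). With the block 3.02% of all tested probe sets were higher in C57BL/6J and 16.6% were lower in BALB/cByJ. With the sense-strand control level as a covariate the differences were 0.49 in C57BL/6J (limma's adjusted p = 0.605) and -0.22 in BALB/cByJ (0.861), and without array 1 of C57BL/6J that strain's difference was 0.29 (0.817). Of 28 pairs of strains 0 were called for Rgs7 without the block and 7 with it. Over all tested probe sets 6.14% of pair contrasts were called with the block.

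In all, 2 of the 8 member probe sets were called by the F-test, both of Rgs5, where 4.58% of all tested probe sets were. With the preparation block 4 were called, by the addition of Rgs2 and Rgs7, where 18.9% of all were. When each gene was represented by its brightest probe set, 1 of 6 member genes was called, as were 232 of all 5660 tested genes (4.10%), with 3 and 1068 under the block. The median range of the 6 genes was 0.85, against 0.66 over all tested genes.

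Rgs4, which has wide expression in forebrain neurons and lies next to Rgs5, had means from 6.36 ± 0.35 in DBA/2J to 5.73 ± 0.29 in FVB/NJ. DBA/2J had signals of 80.3, 59.0, 103.0 and 92.0, and FVB/NJ had 27.2, 77.5, 54.3 and 68.6. The arrays of the 2 strains overlap, and the range of 0.63 did not pass (limma's adjusted p = 0.906, and 0.413 with the block). BALB/cByJ and C57BL/6J, which read high for Rgs5, had Rgs4 means of 5.83 and 5.85, against the lowest mean of 5.73 in FVB/NJ. The strain means of Rgs4 and Rgs5 had r = 0.39 over 8 strains.

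Rgs16, an inducible member, was measured by 94378_at with its highest mean in BALB/cByJ (6.72 ± 0.55) and its lowest in C57BL/6J (6.38 ± 0.46), the narrowest range of the 8 tested probe sets at 0.33 (limma's adjusted p = 0.972). BALB/cByJ had signals of 141.8, 134.1, 70.0 and 92.0 and C57BL/6J had 89.5, 122.3, 63.7 and 69.5, which overlap. Rgs16 read higher in the second preparation in 2 of 8 strains, and the mean difference between preparations was -0.31. Its second probe set, 161609_at, had signals of 1.7 to 33.8 and was not tested. With every probe set in the fit its adjusted p was 0.790.

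Rgs10, the only member on chromosome 7, had 3 probe sets. By 160629_at it was highest in A/J (6.60 ± 0.10) and lowest in BALB/cByJ (6.12 ± 0.20), and by 161765_f_at highest in C3H/HeJ (5.99 ± 0.27) and lowest in DBA/2J (5.47 ± 0.32). The suffix of the second marks a probe set that can read several transcripts. Neither passed limma's F-test, with an adjusted p of 0.958 for the first and 0.771 for the second, and strain held 0% and 12.1% of their variance. The strain means of the 2 had r = -0.69 over 8 strains, and the test of their difference did not pass (limma's adjusted p = 0.850, range 0.72). The third, 103384_at, had signals of 1.7 to 20.7 and was not tested. With every probe set in the fit its adjusted p was 0.693.

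**Figure D3:**
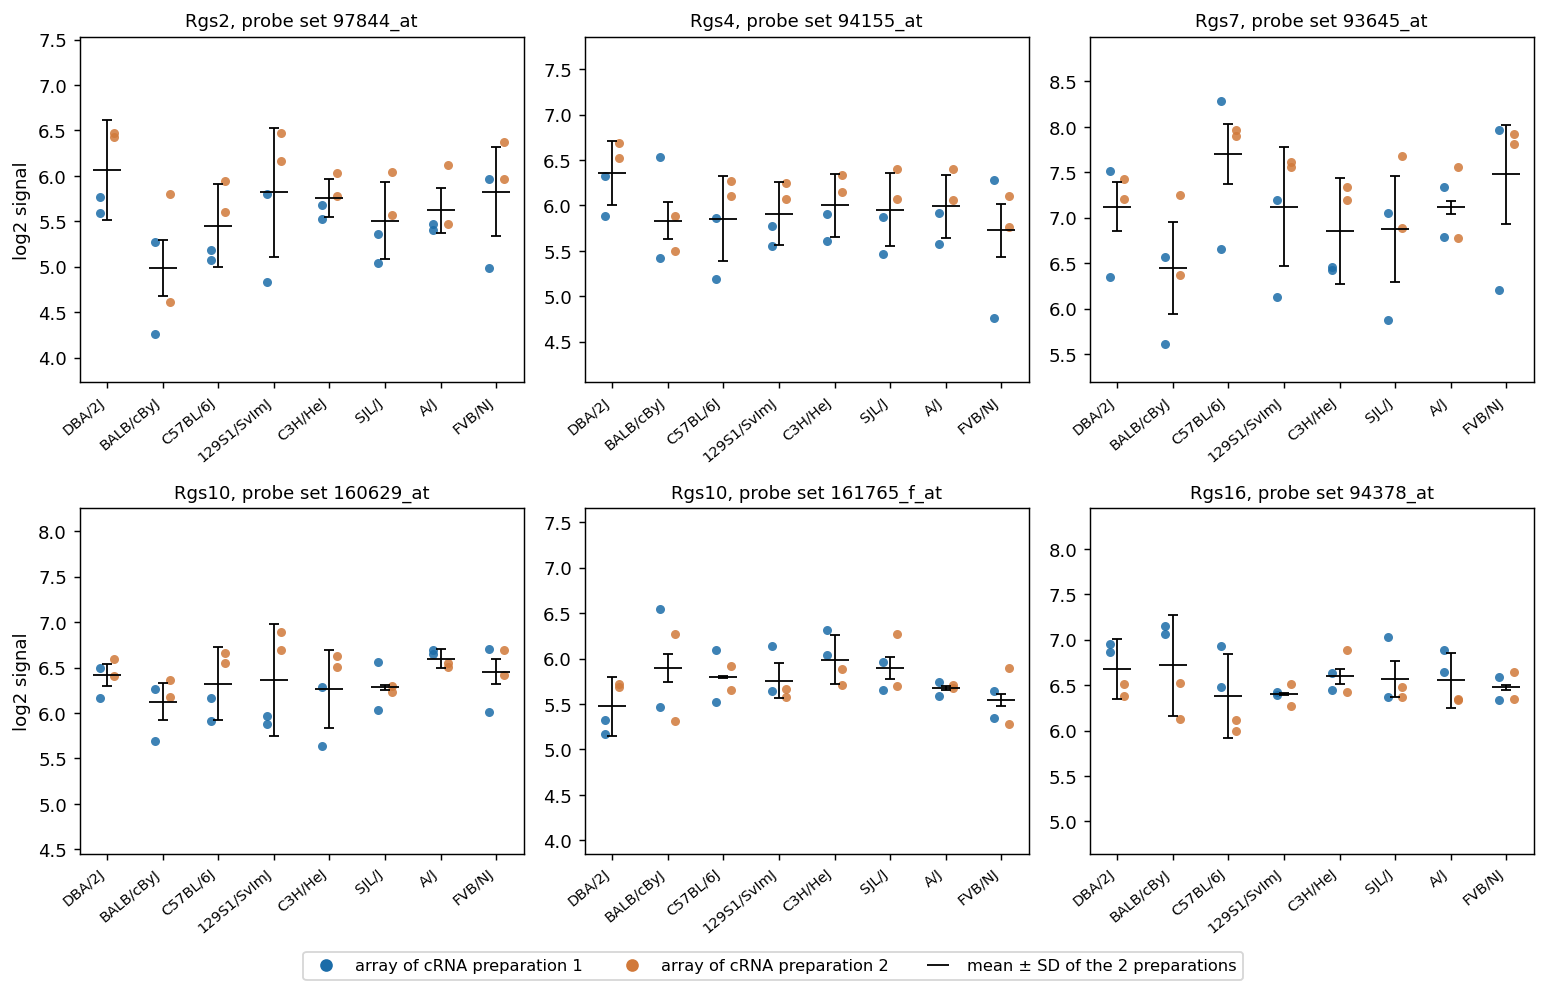
Log2 signal of the tested probe sets of Rgs2, Rgs4, Rgs7, Rgs10 and Rgs16 on each array, by strain, on vertical axes of equal length; points are arrays, coloured by cRNA preparation, and bars are the mean ± SD of the 2 preparations. The mean of the second preparation lies above that of the first in all 8 strains for Rgs2 and Rgs7, and BALB/cByJ has the lowest mean for both (4.99 and 6.45).

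**Figure D4:**
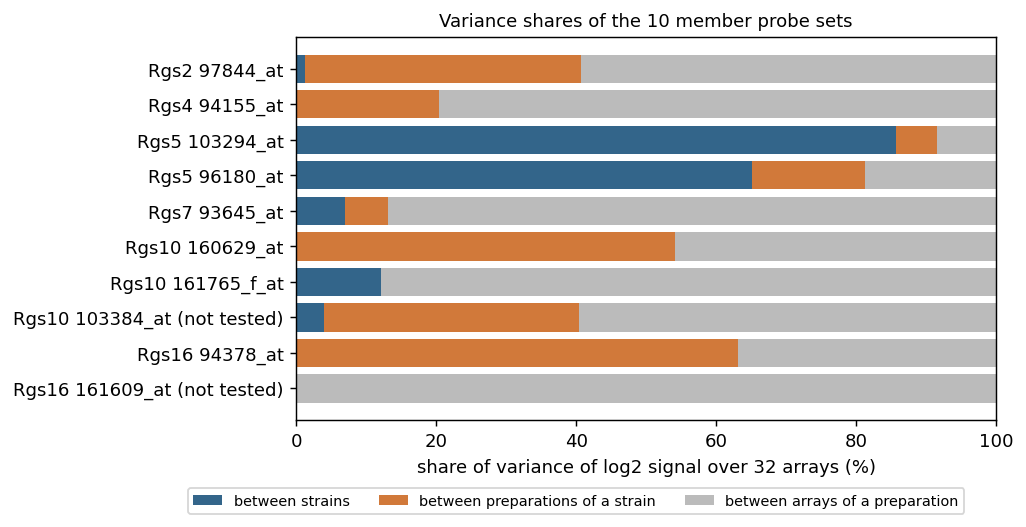
Share of the variance of log2 signal over 32 arrays that lies between strains, between preparations of a strain and between arrays of a preparation, for the 10 member probe sets. Strain holds 85.8% and 65.1% for the 2 Rgs5 probe sets and at most 12.1% for the others.

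The wider family, its partners and the lists after them were read against the 4.10% of all tested genes that were called. With the block the background was 1068 of 5660. Of 11 other RGS genes on the array 9 were tested, Rgs3, Rgs8, Rgs11, Rgs14, Rgs19, Axin1, Axin2, Snx13 and Snx14, and 0 were called with or without the block in limma's F-test. The smallest adjusted p among their probe sets was 0.568, for Rgs11, and their median range was 0.51. Rgs14, a gene of the CA2 field of the hippocampus, spanned only 0.30, from 9.67 in FVB/NJ to 9.38 in BALB/cByJ. Of 6 binding partners tested, Gnb5 among them (range 0.71, limma's adjusted p = 0.653), 0 were called, and 1 with the block.

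Among the proteins that RGS proteins act on or that lie beyond them, alpha subunits (10 tested) and G protein-coupled receptors of the hippocampus (14 tested) had 0 called, and 3 and 4 with the block. Of 20 effectors and second messenger genes 2 were called, and 3 with the block. Kcnj9, a subunit of the potassium channel that G protein beta-gamma opens, was highest in DBA/2J (8.34 ± 0.22) and lowest in C57BL/6J (6.57 ± 0.09, limma's adjusted p = 0.00081), so 2 of the strains with high Rgs5 were its extremes. Pde1a, a phosphodiesterase stimulated by calmodulin, was highest in A/J (8.16 ± 0.18) and lowest in DBA/2J (6.85 ± 0.18, limma's adjusted p = 0.0018). Its probe set can read several transcripts. Of 15 activity-induced genes, a class that some RGS genes belong to, 0 were called, and 2 with the block.

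Of the 3 nearest tested genes on each side of Rgs5 on chromosome 1, Mgst3 alone passed the F-test without the block. Aldh9a1, the next tested gene beyond Mgst3, passed only with the block (limma's adjusted p = 0.362, and 0.0211 with it). Its r with Rgs5 was -0.68 over 8 strains. Mgst3, a glutathione transferase of the membrane and the nearest tested gene on one side, was called (9.28 ± 0.25 in DBA/2J to 7.95 ± 0.05 in BALB/cByJ, limma's adjusted p = 0.0045). It shares with Rgs5 the highest mean in DBA/2J, but BALB/cByJ was its lowest strain, and r with Rgs5 was 0.41 over 8 strains. Hsd17b7, an enzyme of steroid and cholesterol synthesis and the next tested gene beyond Rgs4, ran opposite to Rgs5. It was highest in SJL/J (5.26 ± 0.26) and lowest in C57BL/6J (3.72 ± 0.62), BALB/cByJ (4.05 ± 0.85) and DBA/2J (4.13 ± 0.67), with r = -0.918 over 8 strains, though its own strain test did not pass (limma's adjusted p = 0.343). Those low means are signals under the limit for testing, a mean of 21.3. Over the 30 genes that are among the 3 nearest tested genes on each side of a member, members left out, 2 were called, Mgst3 and Kcnj9, and 10 with the block. Over all 5660 tested genes 232 were called (4.10%), and 1068 with the block.

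**Figure D5:**
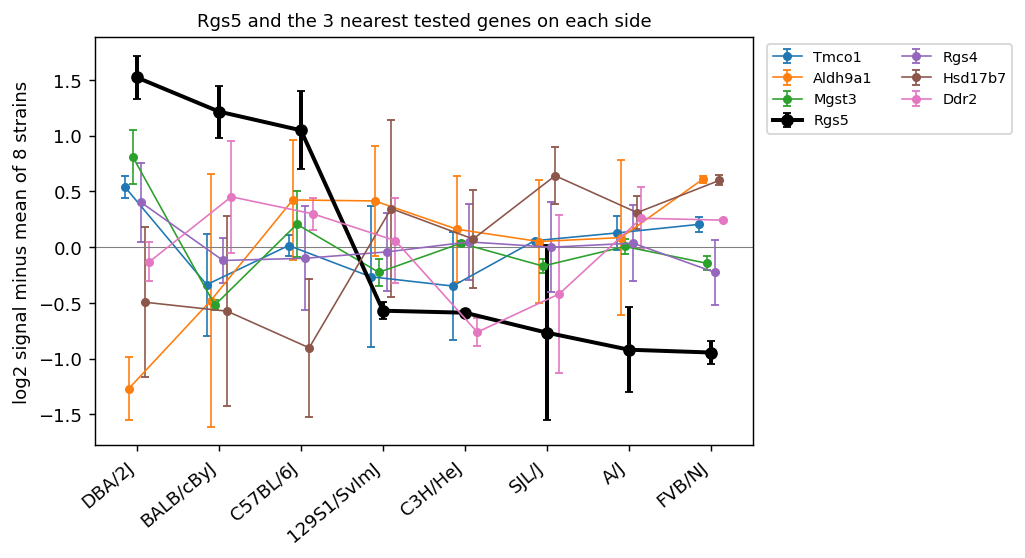
Log2 signal of Rgs5 (probe set 103294_at, black) and the 3 nearest tested genes on each side, as the difference of each strain mean from the mean of the 8 strains; bars are the SD of the 2 preparations, and lines only join the points of a gene. Rgs5 is above its mean in DBA/2J, BALB/cByJ and C57BL/6J, where Hsd17b7 is below its own, and Rgs4 stays within 0.40 of its mean.

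The genes whose strain means were most like those of Rgs5 103294_at, of 1462 tested probe sets with 1 symbol and a range of at least 1, were Phtf1, Enc1 and Hsd17b12. Phtf1, a membrane protein of the endoplasmic reticulum, had r = 0.995 over 8 strains, with 7.44 in DBA/2J, 7.27 in BALB/cByJ, 7.08 in C57BL/6J, elsewhere 6.14 to 6.43, and was called (limma's adjusted p = 0.0048). Enc1, an actin-binding protein of neurons, had r = 0.955 and was highest in DBA/2J (6.36) and lowest in SJL/J (5.31), without passing the test (limma's adjusted p = 0.134, and 0.0261 with the block). Hsd17b12, an enzyme of fatty acid elongation, had r = 0.900, with its highest mean in DBA/2J (7.95) and its lowest in A/J (6.88, limma's adjusted p = 0.0257). Likeness was ranked over many probe sets with 8 points each from the same arrays, and no p is attached to it.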

How the data were processed

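The authors deposited linear intensity values, 1 for each probe set on each array. The tool was MAS5 (no version stated), per the submitters' processing notes. Scaling target and detection calls: not given in the sources used here. The mean intensity with 2% trimmed from each end was 100.05 to 100.07 on every array, so the arrays were taken as scaled, and the number of arrays limits the precision. Symbols came from the platform annotation, in which 396 probe sets with several symbols and 1193 with none stayed unnamed, and neighbours and promoter sequences from RefSeq (GRCm38.p6). The 66 controls among the 12488 probe sets were dropped, a floor of 1 was set before log2, and 7453 probe sets, those with the highest mean, entered the tests.

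Averaging both arrays of each preparation left 16 values, on which limma 3.58.1 (R 4.3.3) fitted 8 strain means with lmFit and a trended eBayes, leaving 8 residual degrees of freedom. An F-test, 8 contrasts with the other 7 strains and 28 pairs were adjusted by Benjamini-Hochberg over all probe sets within each test, and the difference of 2 probe sets of 1 gene over 1248 such pairs. Variance shares came from nested mean squares. The fits were tested on simulated data. No 2 arrays held identical values.

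The array numbers pair samples across strains, since the series design says that they mark the preparation. The difference between preparations correlated across probe sets in all 28 pairs of strains (r from 0.109 to 0.557), with r of 0.109 to 0.244 in pairs with BALB/cByJ. The fit with this block is printed where it changes a call. Array 2 of FVB/NJ carries the title day of the second set. Among second-preparation arrays, arrays 3 and 4 of BALB/cByJ carry title days 5 and 6, and array 4 of FVB/NJ day 5. In the other strains these arrays carry days 3 and 4. The block thus takes preparations of different title days as the same, and the block calls for BALB/cByJ rest on that pairing.

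Members and gene lists were chosen with earlier results of these data known. Named are all member probe sets, of each other list up to 4 genes past the F-test with the widest range, the 3 genes most like Rgs5 and the 3 nearest tested genes on each side of a member. Other genes were named after their values were seen. Astrocyte, microglia, oligodendrocyte, choroid plexus, inhibitory neuron, and thalamus and striatum markers were also tested, and of 6, 9, 8, 4, 10 and 5 genes 0, 1, 1, 1, 1 and 1 were called, in that order, and 3, 4, 1, 2, 5 and 2 with the block. The background over all 5660 tested genes was 232 called, and 1068 with the block. Alternatives changed the scaling, filter, offset, variance model, unit of replication and covariate, or left out arrays, preparations or BALB/cByJ.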

Additional observations from a re-analysis of the deposited data

Results flagged for a closer look

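In 6 of the 80 groups made by 1 strain and 1 member probe set, 1 of the 4 arrays lay far from the other 3 on the log2 scale, by a rule that flags about 1 group in 20 by chance. For Rgs5 probe set 96180_at these were array 1 of BALB/cByJ, at a signal of 23.3 where the other arrays had 53.5 to 61.8, and array 1 of SJL/J, at 11.4 where the others had 21.8 to 22.9. Without array 1 of BALB/cByJ, that strain's difference from the other 7 was 1.19 for this probe set and passed (limma's adjusted p = 0.0241). For Rgs7, array 1 of FVB/NJ was at 73.7 and its other arrays at 224.3 to 250.9. For Rgs2, array 3 of A/J was at 69.5 and the others at 42.5 to 44.5. Array 2 of hippocampus_129S1SvImJ was at 70.4 for Rgs10 probe set 161765_f_at, where the others had 47.6 to 50.8. The untested Rgs16 probe set 161609_at had 1.7 on array 1 of SJL/J and 15.2 to 20.3 on the others.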

How the results depend on the processing

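The count of member probe sets past the F-test, 2, became 4 with the preparation number as a replicate block, 1 with no filter, without BALB/cByJ or with array 2 of FVB/NJ counted with the second preparation (an alternative chosen after seeing the data), and 0 with 40% of probe sets kept, where neither Rgs5 probe set was tested. It was 1 to 2 without single arrays or preparations. The 3 called contrasts of a strain with the others became 11 with the replicate block, 7 with median centring, 5 with quantile normalization, 8 with preparation as a random block, 12 with the title day as a block, 1 with the sense-strand covariate and 0 with 40% kept, and were 2 to 5 without single arrays and 1 to 5 without single preparations, 1 without either of DBA/2J. The called pairs of strains, 17, became 34 with the replicate block and were 13 to 19 without single arrays and 11 to 17 without single preparations, 11 without the first of BALB/cByJ or the second of DBA/2J, both added after seeing the data. The 0 called pairs of probe sets of 1 gene became 1, that of Rgs5, with the random block or the title day as a block. Why these counts moved was not tested beyond what the alternatives change. The Rgs5 probe set 103294_at stayed called by the F-test in all 12 alternatives that tested it and without each of the 32 arrays and 16 preparations. No named difference changed sign. The replicate block changed no other call of the probe sets, genes and lists named here than those printed. Over all probe sets the F-test called 341, with 246 without BALB/cByJ, 1405 with the replicate block, 667 with the random block and 2324 with the title day as a block. The title-day fit takes the 2 arrays of a preparation as separate replicates. Rgs5 signals in the low strains lie near the limit for testing, so folds against them rest on signals of about that size, and with 64 added before log2 the DBA/2J difference for 103294_at was 0.74 in place of 1.74 and stayed called (limma's adjusted p = 0.00044).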
